A study of Sus scrofa and Rattus norvegicus with 8 samples.

Results

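The imprinted growth genes DLK1, MEST, PEG3, PEG10, SGCE, PLAGL1, CDKN1C, NNAT, GNAS and GRB10 were examined in RNA-seq libraries of pig subcutaneous fat. They were taken by symbol from a named list of 10 genes, and the rule that takes them uses no measured value. A pig Ensembl gene ID carried the symbol for 8 of the 10, out of 25880 IDs in the table, of which 14844 had a symbol and were nuclear. NNAT and GNAS were matched to no ID by the name table, and so they have no value here.

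The 6 libraries were made from the backfat's upper layer, a subcutaneous white fat depot, of adult female Bama pigs aged 2 years. All 6 belonged to 1 group with no treatment, genetic change or control group. Ribosomal RNA had been depleted, and stranded libraries were sequenced on an Illumina HiSeq instrument. The study's methods describe collection from 6 pigs, so the spread between libraries holds both animal and technical differences. The tissue was bulk fat, in which fewer cells of a type and less RNA per cell cannot be told apart. Expression was given in TPM (an abundance corrected for transcript length and set to a fixed total per library), which keeps no read counts, so depth is unknown and the only error is the spread between libraries. The 2 rat libraries of the series were not used here, because their IDs could not be paired with symbols.

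Genomic imprinting is the expression of a gene from the maternal or the paternal copy only, set by DNA methylation laid down in the germ line at CpG-rich control regions. Many imprinted genes act on growth, with a broad tendency for paternally expressed genes to promote it and for maternally expressed genes to restrain it. They tend to be active in the fetus and placenta and to be turned down after birth, and several, DLK1 and MEST among them, are known from studies of adipocyte precursors and fat tissue expansion. TPM do not separate the parental copies, so the imprinting status of these genes in backfat was not measured.

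SGCE and PEG10 share an imprinted domain. On Sscrofa11.1 (RefSeq annotation), SGCE runs on the minus strand of chromosome 9 from 74402714 to 74473904 and PEG10 on the plus strand from 74474121 to 74486983, so the genes start back to back. The stretch between both starts, chr9:74473905-74474120, is intergenic and 216 bases long. It is shown because it is the sequence from which the pair diverges. It is read here from the plus strand, 5′ to 3′, and capitals mark the CpG dinucleotides, the letters on which DNA methylation is placed.
SGCE to PEG10: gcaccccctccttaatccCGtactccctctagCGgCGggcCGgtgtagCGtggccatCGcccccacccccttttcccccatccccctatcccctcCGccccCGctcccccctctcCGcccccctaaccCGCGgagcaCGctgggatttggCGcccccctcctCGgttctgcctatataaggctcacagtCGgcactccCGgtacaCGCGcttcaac
The stretch held 18 CpG, and 68.5% of its bases were G or C. Among 9630 minus-strand protein-coding genes with a plus-strand gene start beyond their own, 623 (6.47%) had a gap as short as this one. In the 300 bases upstream of each gene start, CpG numbered 52 for DLK1, 52 for GRB10, 45 for CDKN1C, 26 for SGCE, 21 for PEG10 and 16 for PEG3. The same window held 2 for MEST and 1 for PLAGL1, against a median of 14 over 19531 windows of protein-coding genes. These are descriptions of the annotated starts, and no methylation was measured.

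The libraries were not alike in make-up. The named nuclear genes held 24.1% to 26.3% of the TPM in replicates 1, 2, 3 and 6, but 3.34% in replicate 4 and 4.73% in replicate 5. The rest of these libraries was held by IDs without a symbol, at 96.5% and 95.0%. In deposited TPM, replicates 4 and 5 lay below the other 4 libraries for 98.2% of 12130 genes. For this reason the members are given on both scales, as deposited and as rescaled TPM, in which the named nuclear genes of every library sum to the same total. Adipocyte markers fixed for this tissue were abundant in all 6 libraries. ADIPOQ, which encodes adiponectin, had 2992 ± 520 rescaled TPM (SD, n = 6), and PLIN1, the coat protein of fat droplets, had 1659 ± 353 (SD, n = 6).

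Transcription of the members ranged over several orders of magnitude. Above 0.1 deposited TPM, the study's threshold for evidence of transcription, 7 of the 8 members were detected in each of replicates 1, 2, 3 and 6, and 6 in each of replicates 4 and 5. In all 6 libraries 5 of the 8 were detected, against 67.2% of named nuclear genes. PEG3 fell under the threshold in replicate 4 and MEST in replicate 5, and DLK1 did so in every library. A deposited threshold is stricter in replicates 4 and 5, where named nuclear genes held 3.34% and 4.73% of the TPM. PEG3 had 2.25 rescaled TPM in replicate 4 and MEST 1.48 in replicate 5. Over 0.1 rescaled TPM, 7 of the 8 were detected in all 6 libraries, and the share of all genes was not computed there. By mean rescaled TPM the order was SGCE, GRB10, PLAGL1, PEG10, CDKN1C, PEG3, MEST and DLK1, from the 88.6th to the 5.15th percentile of named nuclear genes.

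**Figure D1:**
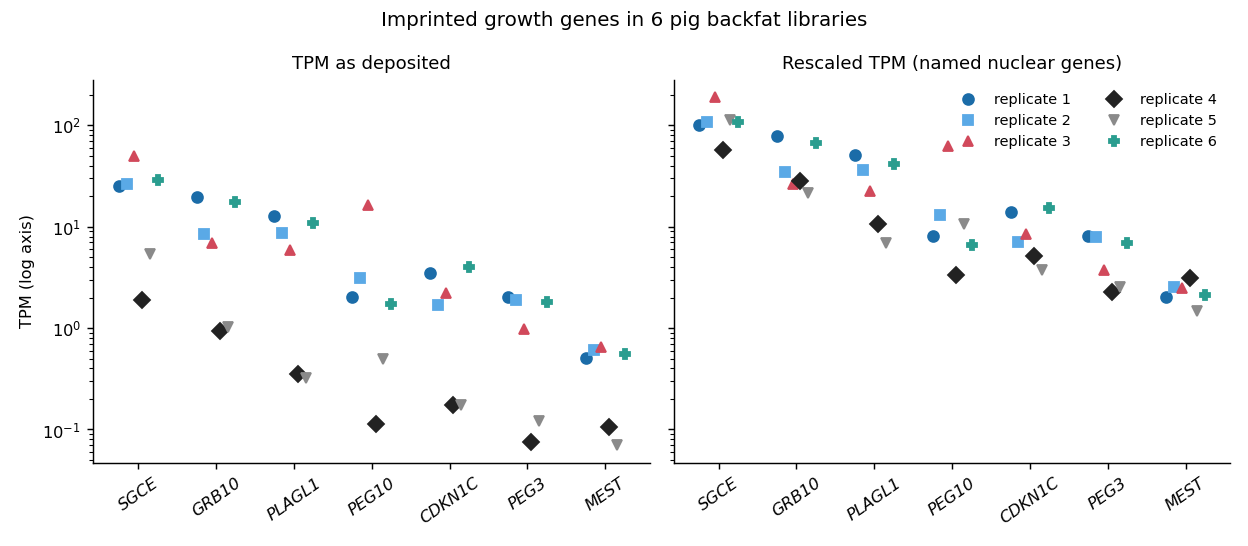
TPM of 7 imprinted growth genes (log axis) in each of 6 libraries, as deposited on the left and rescaled over named nuclear genes on the right, with 1 point per library. On the left replicates 4 and 5 lie below the other 4 libraries for all 7 genes, and on the right PEG10 in replicate 3 (62.2) stands apart from the other 5 libraries (3.37 to 13.01). DLK1 is not drawn because 2 of its values are 0.

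SGCE encodes epsilon-sarcoglycan, a membrane protein related to the sarcoglycans of muscle, and is expressed from the paternal copy in mammals. It was the most abundant member, at 113 ± 43.1 rescaled TPM (SD, n = 6). Its deposited TPM ran from 1.90 in replicate 4 to 49.7 in replicate 3. After rescaling it was 100, 108, 190, 57.0, 114 and 109 in replicates 1 to 6. Replicate 3 was thus the highest and replicate 4 the lowest, while the other 4 libraries lay within 100 to 114.

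PEG10, a paternally expressed gene derived from a retrotransposon and needed for the placenta, lies next to SGCE and was far less abundant. Its rescaled TPM was 8.04, 13.01, 62.2, 3.37, 10.5 and 6.63 in replicates 1 to 6. Replicate 3 was 7.74 times the median of the other 5 libraries, which did not overlap with it. Its CV (SD over mean) of 1.29 was the largest of the 7 members that averaged at least 1 rescaled TPM, and without replicate 3 it was 0.443. Replicate 3 was the highest library for 11.6% of genes, and among members for SGCE and PEG10. It was highest and at least 4 times the median of the other 5 for 14 of 12036 genes above 0 in every library (0.116%), of which PEG10 was 1 and 3 had a larger ratio. These counts were made after the values of PEG10 had been seen.

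The genes around this pair did not all follow replicate 3. The set below was drawn up after the values were seen. PPP1R9A, a neuronal actin-binding protein gene 161 kb from the PEG10 start, was also highest in replicate 3, at 17.4 against 5.22 to 12.2 rescaled TPM. CASD1, a sialic acid acetylating enzyme gene 198 kb to the other side of PEG10, had 41.1 in replicate 3 against 41.4 to 52.2 elsewhere. PON3, a paraoxonase gene 544 kb away, was lowest in replicate 3, at 141 against 287 to 566. The paraoxonase genes beside it were not low there, as PON1 had 83.1 in replicate 3 against 9.86 to 123 elsewhere and PON2 had 806 against 384 to 883. SGCE exceeded PEG10 within every library, by 1.61 on the log2 scale in replicate 3 and by 3.05 to 4.04 in the other 5.

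**Figure D2:**
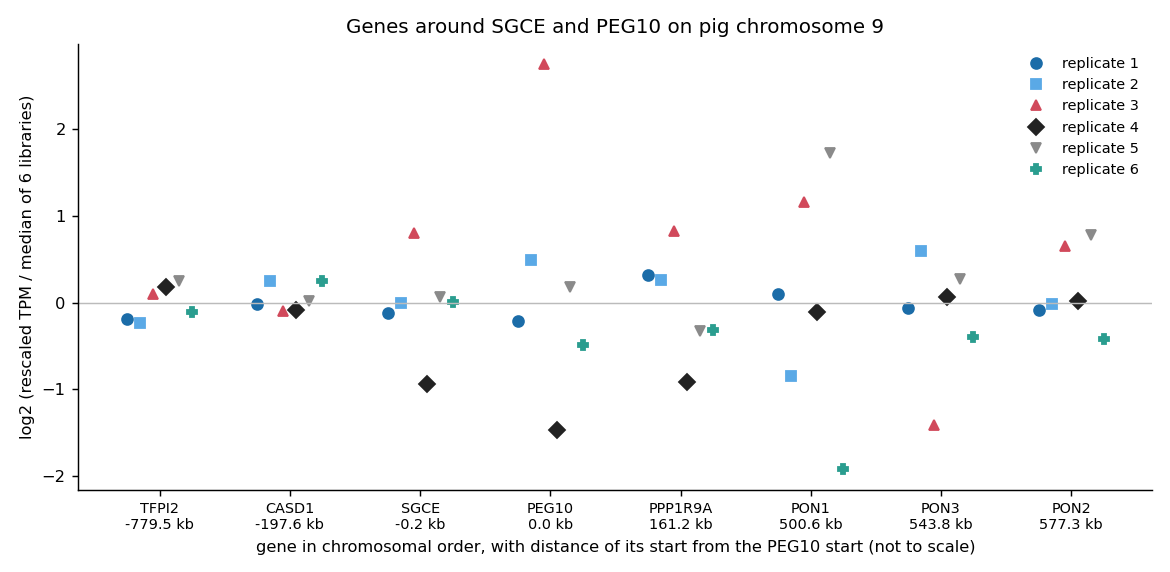
Rescaled TPM of genes around SGCE and PEG10, as log2 of the ratio to the median of 6 libraries, in chromosomal order with the distance of each gene start from that of PEG10. Genes averaging at least 1 rescaled TPM are drawn, with 1 point per library. Replicate 3 is the highest point for SGCE, PEG10 and PPP1R9A, and the lowest for CASD1 and PON3.

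GRB10 encodes an adaptor protein that binds the insulin and IGF1 receptors and dampens their signal. It lies on the minus strand of chromosome 9 from 136580363 to 136742552, on the same chromosome as SGCE but far from it. Its rescaled TPM was 77.9, 34.9, 26.2, 28.3, 21.5 and 66.4 in replicates 1 to 6, with a mean of 42.5 ± 23.6 (SD, n = 6). Replicates 1 and 6 were the high libraries, and the other 4 lay within 21.5 to 34.9. The deposited TPM ran from 0.945 in replicate 4 to 19.5 in replicate 1.

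PLAGL1, a paternally expressed zinc finger transcription factor that restrains the cell cycle and acts on other imprinted genes, lies on the plus strand of chromosome 1 from 21299830 to 21371070. It had 51.0, 36.3, 22.5, 10.6, 6.88 and 41.3 rescaled TPM in replicates 1 to 6, a mean of 28.1 ± 17.6 (SD, n = 6). Replicates 4 and 5 lay below every other library. Its highest library was 7.41 times its lowest, the widest ratio among members after the 18.4 of PEG10.

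CDKN1C encodes p57, a maternally expressed inhibitor of cyclin-dependent kinases, and lies on the minus strand of chromosome 2 from 2019391 to 2022092. It had 14.1, 7.03, 8.42, 5.16, 3.72 and 15.2 rescaled TPM in replicates 1 to 6, a mean of 8.94 ± 4.72 (SD, n = 6). As for GRB10 and PLAGL1, replicates 1 and 6 were both above the other 4 libraries. That pattern was shown by 3 of 7 members and by 16.5% of genes.

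PEG3, a large paternally expressed zinc finger protein gene on chromosome 6 (61281931 to 61307788, minus strand), had 8.18, 7.93, 3.71, 2.25, 2.54 and 6.95 rescaled TPM in replicates 1 to 6, a mean of 5.26 ± 2.73 (SD, n = 6). Replicates 3, 4 and 5 lay below the other 3. In deposited TPM it reached 2.04 at most, in replicate 1.

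MEST, a paternally expressed member of the alpha/beta hydrolase family known from expanding fat, was low, and on the rescaled scale it was the least variable member. After median-centring or quantile normalization it was not, with CVs of 0.386 and 0.482 against 0.356 and 0.262 for PEG3. It had 2.03, 2.52, 2.50, 3.15, 1.48 and 2.11 rescaled TPM in replicates 1 to 6, a mean of 2.30 ± 0.565 (SD, n = 6) and a CV of 0.246. Its deposited TPM was at most 0.655. MEST is annotated on the minus strand of chromosome 18 from 18319126 to 18358655, where its RefSeq model overlaps that of COPG2 on the other strand by 12411 bases. COPG2, a coat protein gene of vesicle traffic, had 76.6 ± 3.75 rescaled TPM (SD, n = 6). The sources used here do not say whether the quantification used strand, so reads of both genes may not be fully told apart, and the level of MEST is uncertain.

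DLK1 encodes a membrane-bound and secreted protein of the Notch ligand family that holds preadipocytes back from differentiation, and it is paternally expressed. It lies on the plus strand of chromosome 7 from 121565844 to 121577493. It was listed at 0 in replicates 2 and 3, and at 0.00860, 0.00139, 0.00101 and 0.00828 deposited TPM in replicates 1, 4, 5 and 6. Its rescaled TPM was at most 0.0417. DLK1 was thus not detectable over the threshold in any library. RTL1, from the same domain, had a rescaled TPM above 0 in replicate 2 only (0.0362). DIO3, a thyroid hormone inactivating enzyme gene of that domain, ranged from 0.178 to 2.10.

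The spread between libraries was examined next. The 7 members averaging at least 1 rescaled TPM had a median CV of 0.528, against 0.327 over the 12130 genes with that mean, and 6 of the 7 were above the latter. MEST was the exception on this scale. Without replicates 4 and 5 the medians were 0.333 and 0.188, and 6 of 7 were again above. As deposited they were 0.814 and 0.699. Rescaling over all IDs after removing ribosomal protein and mitochondrially encoded genes gave 0.807 and 0.715. That total again includes the IDs without a symbol, unlike the main rescaling. Median-centring gave 0.396 and 0.307, and quantile normalization 0.435 and 0.277. All 7 members were above the median of genes after median-centring. After quantile normalization 6 of 7 were above, with PEG3 (0.262) below and MEST (0.482) above. Both medians are descriptions, and the members were not tested as a list.

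Levels in replicates 4 and 5 depended on the scale. In deposited TPM all 7 members were lower there than in the other 4 libraries, where 98.2% of genes were. After rescaling this held for 3 of 7 (PEG3, PLAGL1 and CDKN1C), where it held for 50.1% of genes, and no member was above the other 4, where 10.4% of genes were. The members' share was thus near the background on both scales. It was 1 of 7 after quantile normalization, where 25.8% of genes were lower. With ribosomal protein and mitochondrially encoded genes removed and all other IDs kept in the total, named or not, it was 7 of 7, where 98.5% were.

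Markers of cell types were set against the same background, in which 50.1% of genes were lower in replicates 4 and 5 after rescaling. Each list holds few markers, so its count says little beside that share. Of 5 progenitor and stromal markers found, 4 were lower in replicates 4 and 5, and their summed level was 4803 and 4629 rescaled TPM there against 5784 to 9103 in the other 4. PDGFRA, a receptor of adipocyte progenitors, was the exception, with 143 and 133 against 126 to 185. Lower in replicates 4 and 5 were also 3 of 4 endothelial, 3 of 5 macrophage, 2 of 4 smooth muscle, 3 of 5 Schwann and neural, 3 of 3 skeletal muscle and 3 of 4 lymphoid markers, but 2 of 7 adipocyte markers. The summed levels ran from 605 to 736 there and 1034 to 1322 elsewhere for endothelial markers, and from 197 to 336 and 426 to 543 for macrophage markers. For smooth muscle they were 436 to 451 and 530 to 898, for Schwann and neural 12.3 to 16.5 and 31.5 to 39.1, for skeletal muscle 1.69 to 2.22 and 4.76 to 12.99, and for lymphoid 3.79 to 5.68 and 12.95 to 19.4. The summed adipocyte level was 26839 and 36268 against 18418 to 33073. FABP4 alone held 20000 and 28926 of it in replicates 4 and 5. The median over the adipocyte markers was lower there than in the other 4, at 1351 and 1247 against 1506 to 1973 rescaled TPM. DCN likewise held 4540 and 4365 of the progenitor and stromal sum in replicates 4 and 5. The part of cell make-up in the members' levels was not tested.

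Because the scale of a library cancels in a ratio, members were compared with each other within libraries, as differences of log2(rescaled TPM + 0.1). Of 28 pairs of members, 21 had the same order in every library. Every pair with DLK1 is among these, and DLK1 was under the detection threshold in all libraries. Of the 7 pairs that are neighbours in the order of levels, 2 had the same order in every library. SGCE exceeded GRB10 by 1.49 ± 0.98 on the log2 scale (SD, n = 6; higher in 6 of 6; exact two-sided paired permutation test, p = 0.0312, adjusted p = 0.0875 over 7 pairs). MEST exceeded DLK1 in 6 of 6 libraries with the same exact p-values, and no fold is given because DLK1 had values of 0. DLK1 was not detectable over the threshold in any library, so this order reflects its absence. The neighbours and their order were taken from the same values that were tested, so these p-values give no independent support for the order. No neighbouring pair passed an adjusted p of 0.05, but 0.0312 is the smallest p that 6 libraries allow, so missing the threshold says little about whether neighbours differ. The differences between GRB10 and PLAGL1 (0.75 ± 0.66), CDKN1C and PEG3 (0.76 ± 0.52) and PEG3 and MEST (1.01 ± 0.91; log2 scale, SD, n = 6) were larger than their SD, and each had the same direction in 5 of 6 libraries. Those between PLAGL1 and PEG10 (1.05 ± 1.71, higher in 4 of 6) and PEG10 and CDKN1C (0.44 ± 1.58, higher in 3 of 6) were smaller than their SD.

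Each member was then compared with a relative of its family or a gene beside it. Of 10 such pairs that could be compared, 9 had the same order in all 6 libraries, each with an adjusted p of 0.0347 in an exact two-sided paired permutation test. As a cell cycle inhibitor, CDKN1C was the least abundant of its family. It was lower than CDKN1A (p21) by 4.55 ± 0.64 on the log2 scale and lower than CDKN1B (p27) by 4.03 ± 0.58 (SD, n = 6). CDKN1A had 198 ± 68.6 and CDKN1B 133 ± 23.3 rescaled TPM (SD, n = 6).

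For the adaptor family the imprinted gene was the most abundant. GRB10 exceeded GRB7 by 4.65 ± 0.84 and GRB14, which also binds the insulin receptor, by 2.53 ± 0.47 on the log2 scale (SD, n = 6), with higher values in 6 of 6 libraries in both pairs. GRB14 had 7.37 ± 4.11 and GRB7 1.67 ± 0.967 rescaled TPM (SD, n = 6).

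Among the zinc finger genes, PLAGL1 exceeded PLAG1 by 4.45 ± 0.55 and PLAGL2 by 1.62 ± 0.46 on the log2 scale (SD, n = 6). Both relatives are known as growth-promoting transcription factors. Their rescaled TPM was 1.27 ± 0.879 and 9.70 ± 5.95 (SD, n = 6).

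SGCE exceeded SGCA, the sarcoglycan of striated muscle, by 2.09 ± 0.58, and PEG10 by 3.29 ± 0.91 on the log2 scale (SD, n = 6). MEST was lower than COPG2 by 5.03 ± 0.34 (SD, n = 6), with the overlap named above. DLK1 was lower than DLK2 in 5 of 6 libraries (exact permutation test, adjusted p = 0.0625), where DLK2 itself reached at most 0.848 rescaled TPM.

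**Figure D3:**
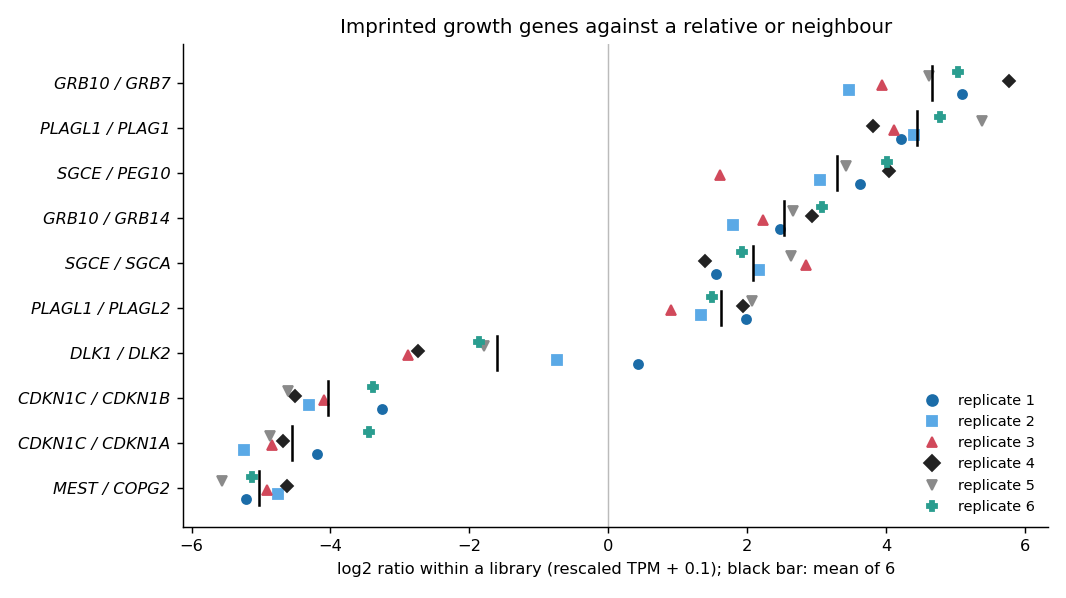
Log2 ratio of each imprinted growth gene to a relative or neighbour within a library, from rescaled TPM + 0.1, with 1 point per library and a black bar for the mean of 6. The 6 points lie on the same side of 0 for 9 of 10 pairs, and the ratio of SGCE to PEG10 is lowest in replicate 3.

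Patterns over the libraries were compared by the SD of the log2 ratio between genes, a small SD meaning a nearly constant ratio. No correlation is given, since replicates 4 and 5 differed from the rest in their share of named nuclear genes. Whether the libraries cluster was not tested. Among members, CDKN1C and GRB10 were the closest pair over all 6 libraries, with an SD of 0.33. Only 44 of 8852 genes were closer to GRB10 than CDKN1C was, and 164 of 8853 were closer to CDKN1C than GRB10 was. Without replicates 4 and 5 the SD was 0.36, and 108 and 598 genes were closer. PEG3 and PLAGL1 had an SD of 0.46. To PEG3, 1498 of 8853 genes were closer than PLAGL1 was, and to PLAGL1, 604 of 8852 were closer than PEG3 was. Without replicates 4 and 5 their SD was 0.20, with 331 and 256 closer, so CDKN1C and GRB10 were not the closest pair there. For PEG10, SGCE was among the closest genes, with 15 of 8852 closer, but the ratio was not constant, with an SD of 0.91. Without replicates 4 and 5 the SD was 1.05, with 57 closer. Both genes were highest in replicate 3, which was not left out for this measure. The high rank held in 1 direction only, since 7580 genes were closer to SGCE than PEG10 was.

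The 3 most similar genes of each member were led by TMEM176B for MEST, GGA3 for PEG3, AS3MT for SGCE, GZMK for PLAGL1, AMBRA1 for CDKN1C and MMP27 for GRB10, with SDs from 0.10 to 0.19. For PEG10 the closest was UCP3, a mitochondrial carrier gene, with an SD of 0.59, followed by POR and DDAH1. UCP3 was also highest in replicate 3, at 642 against 78.0 to 332 rescaled TPM. Of the 21 genes found in this way for 7 members, 2 were found again without replicates 4 and 5. Other libraries were not left out for this measure, and the part of having fewer libraries in the loss was not tested.

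Other imprinted genes gave the setting of the members. The list of 57 called other imprinted genes here holds genes imprinted in human, mouse or both, and genes that lie within an imprinted cluster. Of the 57, 39 had an ID, 23 were over 0.1 deposited TPM in all 6 libraries and 4 in none. IGF2, H19 and MEG3 had no ID, so the best known fetal growth factor of this class has no value here. IGF2R, which clears IGF2 from the cell surface, had 58.8 ± 20.5 rescaled TPM (SD, n = 6). The 5 most abundant were DCN (6179 ± 1869), a collagen-binding proteoglycan that is also among the stromal markers, PON2 (598 ± 198), TFPI2 (370 ± 52.5), PON3 (367 ± 145) and UBE3A (136 ± 22.7, SD, n = 6). SGCE was thus the only growth gene of the 8 with a mean above 100 rescaled TPM.

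The 27 other imprinted genes with a mean of at least 1 had a median CV of 0.332, against 0.528 for the members and 0.327 over all genes. Replicates 4 and 5 were lower than the other 4 for 12 of these 27 and higher for 4, and replicate 3 was highest for 5, near the shares of all genes (50.1%, 10.4% and 11.6%). In the chromosome 2 cluster of CDKN1C, the genes differed in their pattern. OSBPL5, a lipid transfer protein gene, was like CDKN1C lower in replicates 4 and 5, at 10.3 and 9.20 against 19.8 to 26.2 rescaled TPM. KCNQ1, a potassium channel gene of that cluster, was higher in replicates 4 and 5, at 23.0 and 21.1 against 7.14 to 8.56 rescaled TPM, where CDKN1C was lower. In deposited TPM KCNQ1 was lower there, at 0.769 and 0.999 against 1.73 to 2.24, as were 98.2% of genes. PHLDA2, a maternally expressed gene that restrains placental growth, had 18.5 and 33.9 in replicates 4 and 5 against 7.55 to 31.4. The cluster's genes were looked at after the values had been seen.

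**Figure D4:**
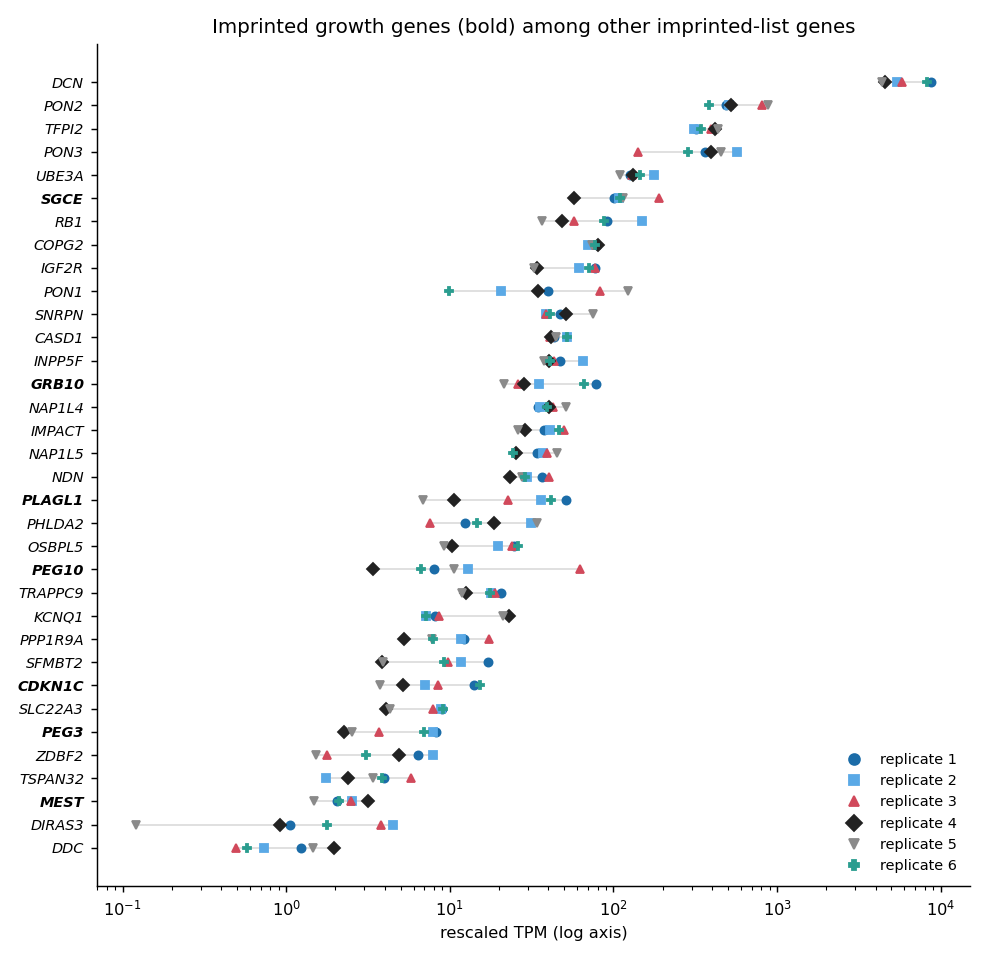
Rescaled TPM (log axis) of 7 imprinted growth genes, in bold, among 27 other genes that are imprinted in human or mouse or lie within an imprinted cluster. Genes are ordered by mean, with 1 point per library and a grey line from the lowest to the highest. SGCE is the sixth from the top, and PEG10 has the widest line among the bold genes.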

How the data were processed

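The authors quantified reads with Kallisto 0.43.0, as named in the submitters' processing notes, and deposited TPM per Ensembl gene ID, with Sscrofa11.1 as the pig genome. The study quantified annotated protein-coding genes together with assembled long noncoding transcripts and names an annotation release for its pig reference. Whether this table used that release, and whether quantification used strand, is not stated in the sources used. TPM keep no counts, so no counting interval is given.

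IDs were given symbols from a table of names, with a match for 14857 of 25880 (57.4%). The 13 mitochondrially encoded genes were set aside, and each library's other 14844 named genes were scaled to the same total, that of TPM over all IDs (rescaled TPM). Analysis used Python 3.11.15, numpy 2.4.6, pandas 2.3.3 and scipy 1.17.1, and the scripts were tested on simulated data. Pairs were compared by an exact two-sided paired permutation test over all sign flips, with Benjamini-Hochberg adjustment over the pairs of each family. Named genes were the members, their relatives, the 3 most similar genes per member (mean rescaled TPM of at least 10), the 5 most abundant other imprinted genes, IGF2 and IGF2R, and markers. Others were named after their values were seen. Positions are from RefSeq (read with pysam 0.24.0), matched by symbol. Plots used matplotlib 3.10.9. The members and lists were chosen with earlier results of these data known.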

Additional observations from a re-analysis of the deposited data

Results flagged for a closer look

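PEG10 stood out in replicate 3, where it had 62.2 rescaled TPM while the other 5 libraries lay within 3.37 to 13.01. In deposited TPM it had 16.3 in replicate 3, against 0.113 to 3.13 in the other 5. By Dixon's criterion at the 95% level the gap to the nearest library was too large a share of the whole range on both scales. Both scales are untransformed, and the criterion was not run on log2 TPM of single genes. The log2 ratios between PEG10 and each of CDKN1C, PLAGL1 and SGCE were examined too, and none was marked. The marked sets were 2 of the 33 sets of 6 values examined in this way, and both hold the same gene. Chance marks about 1 set in 20. The sets share genes and are not independent, so that rate cannot say whether chance would mark as many here.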

How the results depend on the processing

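Detection at over 1 deposited TPM lowered the members found in all 6 libraries from 5 to 1, and the other imprinted genes from 23 to 13. Detection at over 0.1 rescaled TPM raised them to 7 and 31. At the threshold of 0.1 deposited TPM, leaving out each library in turn gave 5 to 6 and 23 to 24. The members' median CV of 0.528 became 0.814 as deposited, 0.396 with median-centring and 0.333 without replicates 4 and 5. It was 0.460 to 0.592 on leaving out 1 library and 0.703 as the SD of log2(rescaled TPM + 1). Another rescaling removed ribosomal protein and mitochondrially encoded genes and used all other IDs, those without a symbol included. It gave 0.807. Members lower in replicates 4 and 5 went from 3 to 7 as deposited and in that rescaling over all other IDs, and to 1 with quantile normalization. They numbered 3 to 5 on leaving out 1 library, with 5 without replicate 4 or 5, where a single library was left to lie below. Neighbouring pairs of constant order numbered 2 to 4 on leaving out 1 library, with 4 without replicate 2. The PEG10 ratio of 7.74 in replicate 3 became 10.1 in that rescaling over all other IDs, and 6.70 to 8.48 on leaving out 1 other library. Similar genes found again fell from 21 to 11 with a minimum mean of 1 and to 2 without replicates 4 and 5. The log2 difference of PEG10 from CDKN1C, 0.44 with all libraries, turned to -0.047 without replicate 3, and ranged from -0.047 to 0.76 on leaving out 1 library. Other causes were not tested. The 9 pairs of a member and a relative kept their order under every setting run, but with 5 libraries no exact p can go below 0.0625 and with 4 none below 0.125, so their test cannot pass there. The settings for PEG10 in replicate 3 and for the other imprinted genes, and leaving out 1 library for the members lower in replicates 4 and 5, were chosen after seeing the data. No paired analysis was possible because a block by replicate number needs groups to compare, and only 1 group was used. The pair tests set genes against each other within libraries.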
